A study of Caenorhabditis elegans with 6 samples.

Results

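Long intergenic noncoding RNAs (lincRNAs) of Caenorhabditis elegans were examined in RNA from neuronal nuclei. The members were all 170 features with a symbol of linc- followed by a number, out of 41862 features in the deposited table. Members were picked by name alone and not by a measured value, though the class was chosen with earlier results of these data known. Of the 170, 90 had a mean of at least 10 normalized counts over the 6 libraries and were tested. The Ensembl annotation of assembly WBcel235 gives 169 of the 170 the biotype lincRNA and the other one the biotype ncRNA.

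Nuclei were immunoprecipitated from synchronised animals at L1, the first larval stage. The 3 mutant libraries came from strain OH17055 [UPN INTACT;Sextuple], labelled null for all 6 of its CUT homeobox targets, which are ceh-48, ceh-44 and ceh-38 on separate chromosomes and the X-linked cluster of ceh-41, ceh-21 and ceh-39. The 3 control libraries came from strain OH16748 [UPN INTACT] (otIs790), labelled wildtype. The strain labels give both groups the INTACT transgene, which tags nuclei so that they can be pulled down, and all 6 libraries are of the pulled-down fraction. The labels do not say whether replicates came from separate cultures, so the p-values measure the spread between these libraries, which may be technical.

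LincRNAs are transcripts that lie between protein-coding genes and are not translated into a known protein. They are made by RNA polymerase II, can be spliced and polyadenylated, and in animals are known for low abundance and for expression in few cell types or stages. Most have no known function, and no individual role is given here to a numbered lincRNA. CUT homeobox proteins are transcription factors that pair a cut domain with a homeodomain, and in the worm several of them are present throughout the nervous system.

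Values are normalized counts, which are reads divided by a size factor per library. The libraries held 15500882 to 20844986 reads. A floor of 3 reads was worth 2.44 to 3.79 normalized counts, for counting error only. Of the 6 targeted genes, 5 were lower in the mutant libraries past the threshold and to unequal degrees. Mean normalized counts in mutant and control libraries were 17.1 and 939 for ceh-21, 17.2 and 834 for ceh-39, 58.1 and 171 for ceh-41, 586 and 1326 for ceh-48, and 2155 and 3728 for ceh-38. The sixth, ceh-44, was higher (16831 and 9563, log2 difference 0.82, adjusted p 0.0179), which goes against its label if that is read as lower RNA. Mutant replicate 2 stood apart at the first 2 genes, with 48 normalized counts of ceh-21 and 43.9 of ceh-39, against at most 3.38 and 5.06 in the other mutant libraries. The fraction held markers of other tissues. Summed counts of 18 pan-neuronal genes were 259418 to 405166 in mutant libraries and 500878 to 575454 in control libraries. Of the 18, 6 were lower past the threshold and none was higher, and of all tested features 10.5% were lower and 7.56% higher. Summed counts of 8 muscle markers were 142675 to 190021 in mutant libraries and 127908 to 149883 in control libraries, and those of 7 germline markers were 640 to 877 and 379 to 486. Intestine markers summed to 19215 to 33686 in mutant libraries and 23947 to 34217 in control libraries, and epidermis markers to 1278 to 1668 and 1556 to 1771. Past the threshold, 2 of 8 muscle markers and 2 of 6 tested germline markers were higher and none was lower. Of 6 tested epidermis markers 1 was higher and 1 lower, and none of 8 intestine markers passed. No listed marker was at 0 in all 6 libraries. The part of these shifts in the lincRNA results was not tested. In such material fewer cells of a type and less RNA per cell cannot be told apart.

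The lincRNAs were a small and uneven part of the nuclear RNA. Together they held 0.103% ± 0.0028 of normalized counts in mutant libraries and 0.107% ± 0.0067 in control libraries (SD, n = 3 each). Their summed level was 20156, 17050 and 17796 normalized counts in mutant replicates 1, 2 and 3, against 21394, 22496 and 20492 in control replicates 1, 2 and 3. Each mutant sum lay below each control sum, with the closest pair at 20156 and 20492. As a percent of the library the groups overlapped, since mutant replicate 3 (0.106%) lay above control replicates 1 and 3 (0.103% and 0.104%). At least 1 read was found for 135 to 155 of the 170 in mutant libraries and for 132 to 147 in control libraries. At 0 in every library were 7 lincRNAs, and 73 more had reads but a mean under 10. Among the 90 tested, the median of the mean level was 45.3 normalized counts.

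The 5 lincRNAs with the highest level held 48.7% to 57.7% of the lincRNA sum in mutant libraries and 54.95% to 56.9% in control libraries. The highest was linc-128, with 4708, 2760 and 3572 normalized counts in mutant replicates 1, 2 and 3, against 3496, 3260 and 2658 in control replicates. Next came linc-149, with 2968, 2076 and 1989 normalized counts in mutant libraries and 2880, 2964 and 2209 in control libraries. For both, the groups overlapped. The third was linc-56, which fell in the mutant libraries and is described with the lower lincRNAs. The fourth, linc-22, had 1821, 1912 and 1806 normalized counts in mutant libraries, against 2242, 2111 and 2028 in control libraries, and the fifth, linc-113, had 1087, 605 and 761, against 1041, 790 and 1008. All 3 mutant values of linc-22 lay below all control values, yet its difference of −0.20 (SE 0.15, adjusted p 0.351) did not pass, and those of linc-128, linc-149 and linc-113 were 0.21, −0.21 and −0.24 with adjusted p of 0.529, 0.498 and 0.482. Per kb of annotated exon, which allows levels of different genes to be compared, the order changed. The highest were linc-56, at 1348 normalized counts per kb in mutant libraries and 4181 in control libraries, and linc-124, at 2932 and 1515. They were followed by linc-149, at 1564 and 1791 normalized counts per kb, and linc-128, at 1599 and 1363. Over the 90 tested lincRNAs the level per kb ran from 3.15 to 2765, with a median of 73.0.

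**Figure D1:**
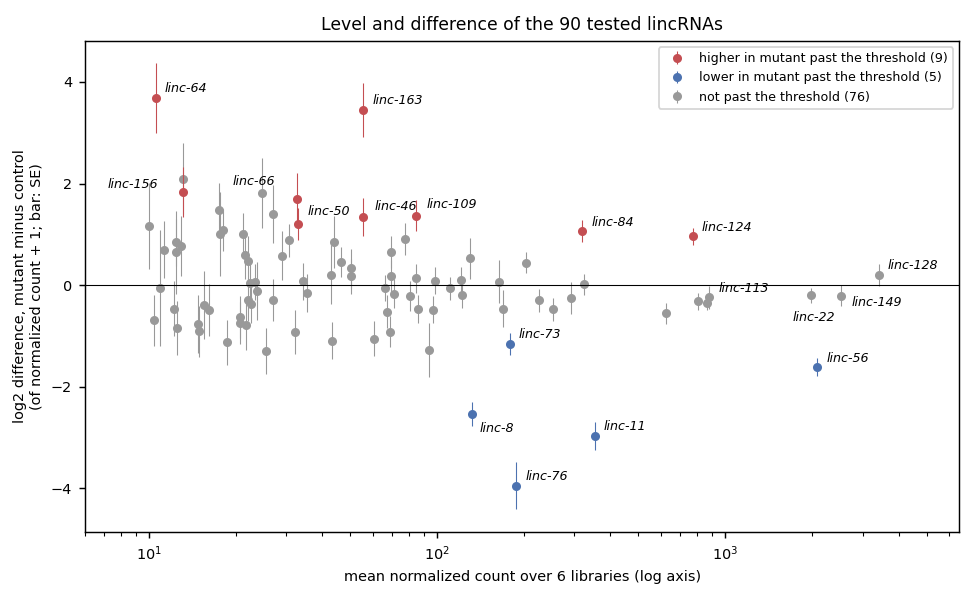
Mean normalized count over the 6 libraries (x axis, log scale) and log2 difference, mutant minus control, of normalized count + 1 (y axis) of the 90 tested lincRNAs, with bars for the SE. The 5 lincRNAs called lower all have means of at least 50, and the 9 called higher span the range of levels from 10.6 to 771.

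Most lincRNAs did not differ past the threshold between mutant and control libraries, and those that did went both ways. By limma with Benjamini-Hochberg adjustment over all 17900 features tested, 9 of the 90 were higher and 5 were lower in mutant libraries at an adjusted p of 0.05. That is 10% higher, against a background of 7.56% of all tested features, and 5.56% lower, against 10.5%. In either direction it is 15.6% (14 of 90), against 18.1%, so the share of lincRNAs called was near the background. For 13 of the 90, 1 group had a mean under 10, so that they passed the filter only through the other group. Of these 13, linc-64 and linc-156 were called, and their calls are a description. Of the 77 with both group means at 10 or more, 7 were higher (9.09%) and 5 lower (6.49%), against 7.32% and 10.5% of all such features. The median log2 difference was −0.06 for the lincRNAs and −0.02 for all tested features, and the quartiles were −0.48 and 0.68 for the lincRNAs, against −0.51 and 0.46. Groups did not overlap for 39 of the 90 (43.3%), against 40% of all tested features. Of these, 18 were higher (20%, against 19.5%) and 21 lower (23.3%, against 20.4%). At an unadjusted p under 0.05 there were 30 lincRNAs (33.3%), against 34.8%. Low level went with few calls in both sets. Among lincRNAs with a mean under 50, 4 of 46 were called (8.70%), and 10.5% of all such features. With a mean of 50 or more, 10 of 44 were called (22.7%), and 21.8% of all such features. The spread within groups had a median SD of 0.41 on the log2 scale for the tested lincRNAs and 0.35 for all tested features, whose median level was higher, at 130 normalized counts.

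The 5 lower lincRNAs, in order of difference, were linc-76, linc-11, linc-8, linc-56 and linc-73. On chromosome III, linc-76 had 13.9, 50.4 and 13.5 normalized counts in mutant replicates 1, 2 and 3, against 252, 434 and 369 in control replicates 1, 2 and 3. Mutant replicate 2 was the highest of the mutant libraries and still lay far below each control. Its mean was 13.6-fold lower in mutant libraries, with a log2 difference of −3.95 (SE 0.47, adjusted p 0.000809). Without mutant replicate 2, the library that also stood apart at ceh-21 and ceh-39, it was 25.6-fold lower (log2 difference −4.55), and the part of that library's deviation in this result was not tested. The log2 difference of linc-76 was −3.65 without mutant replicate 1 and −3.63 without mutant replicate 3. The gene nearest to it on its upstream side, pha-1, lies 2420 bases away on the opposite strand. With sup-35 on the other side, pha-1 is known as the antidote of a toxin and antidote pair. Both fell with linc-76. For pha-1 there were 83.4, 173 and 92.0 normalized counts in mutant libraries and 968, 1526 and 928 in control libraries (log2 difference −3.32, SE 0.30, adjusted p 0.000250). For sup-35 there were 276, 332 and 228, against 445, 649 and 541 (log2 difference −0.97, SE 0.21, adjusted p 0.0148). In pha-1, as in linc-76, mutant replicate 2 was the highest mutant library. Between linc-76 and sup-35 lies Y48A6C.4, which overlaps the end of linc-76 on the opposite strand and differed by 0.27 (SE 0.19, adjusted p 0.332). A protein-coding gene on the same strand, Y48A6C.8, lies inside the span of linc-76 and had means of 0 in both groups. The F-box gene fbxa-128, beyond pha-1, was higher (1.24, SE 0.36, adjusted p 0.0407).

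On chromosome II, linc-11 had 85.9, 59.3 and 88.6 normalized counts in mutant libraries, against 676, 428 and 776 in control libraries. Its mean was 8.04-fold lower, with a log2 difference of −2.97 (SE 0.27, adjusted p 0.000250). The nearest features on its upstream side are bath-10 and bath-9, genes for proteins with BTB and MATH domains, both on the opposite strand, and bath-10 begins 894 bases away. Both were low in every mutant library. For bath-10 there were 6.32, 1.63 and 5.06 normalized counts in mutant libraries, against 59.9, 30.2 and 52.4 in control libraries. For bath-9 there were 1.26, 1.63 and 14.4, against 57.7, 61.5 and 88.3. The log2 differences were −3.26 (SE 0.54, adjusted p 0.00410) and −3.94 (SE 0.70, adjusted p 0.00534). Both genes passed the filter only through the control libraries, so their calls are a description. The bath genes form a family of related sequences, and the treatment of reads shared between copies is not given in the sources used here, so their values are uncertain.

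Also on chromosome II, linc-8 had 35.4, 34.9 and 43.9 normalized counts in mutant libraries, against 206, 215 and 259 in control libraries. The mean was 38.1 ± 5.04 normalized counts in mutant libraries and 227 ± 28.6 in control libraries (SD, n = 3 each), with the groups far apart. Its mean was 5.95-fold lower, with a log2 difference of −2.54 (SE 0.24, adjusted p 0.000273). Its flanking genes moved in opposite directions. Upstream, gbas-1 lies 1076 bases away on the opposite strand and rose, with 488, 551 and 537 normalized counts in mutant libraries, against 171, 216 and 157 in control libraries (log2 difference 1.54, SE 0.19, adjusted p 0.00101). Downstream, F53G2.1 fell, with 153, 175 and 159 in mutant libraries, against 513, 330 and 398 in control libraries (log2 difference −1.32, SE 0.21, adjusted p 0.00346).

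On the X chromosome, linc-56 had 1045, 951 and 1058 normalized counts in mutant libraries, against 2523, 3590 and 3358 in control libraries. It was the third most abundant lincRNA and the highest per kb, and its mean was 3.10-fold lower in mutant libraries, with a log2 difference of −1.62 (SE 0.18, adjusted p 0.000574). The region around it was lower over several genes. The tetraspanin gene tsp-6 ends 603 bases upstream on the same strand and had 1732, 1062 and 1406 normalized counts in mutant libraries, against 4396, 5352 and 5040 in control libraries (log2 difference −1.84, SE 0.20, adjusted p 0.000573). The opposite-strand gene ssr-2, whose end overlaps that of linc-56 by 8 exonic bases, differed by −1.001 (SE 0.17, adjusted p 0.00473). Further upstream, C14A11.6 differed by −3.40 (SE 0.32, adjusted p 0.000273) and the microRNA locus mir-264 by −2.54 (SE 0.61, adjusted p 0.0205). Of 10 tested features within 25 kb of linc-56, 6 were lower past the threshold, against 10.5% of all tested features. The other 4 did not pass.

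On chromosome II, linc-73 had 131, 91.0 and 110 normalized counts in mutant libraries, against 227, 282 and 232 in control libraries. Its mean was 2.23-fold lower, with a log2 difference of −1.16 (SE 0.22, adjusted p 0.00794). It lies 625 bases upstream of unc-104, which encodes a kinesin motor that carries synaptic vesicle precursors, on the same strand. The log2 difference of unc-104 was −0.53 (SE 0.22, adjusted p 0.113, and 0.0277 with the replicate block), with no overlap between groups, and unc-104 is also one of the 18 pan-neuronal genes summed above. The targeted gene ceh-38 lies 38.6 kb from linc-73. A tested lincRNA still closer to ceh-38, linc-35, at 23.7 kb, had 3.79, 30.9 and 11.8 normalized counts in mutant libraries, against 17.4, 13.6 and 15.5 in control libraries, and did not pass (log2 difference −0.39, SE 0.66, adjusted p 0.704). It was singled out for its position.

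**Figure D2:**
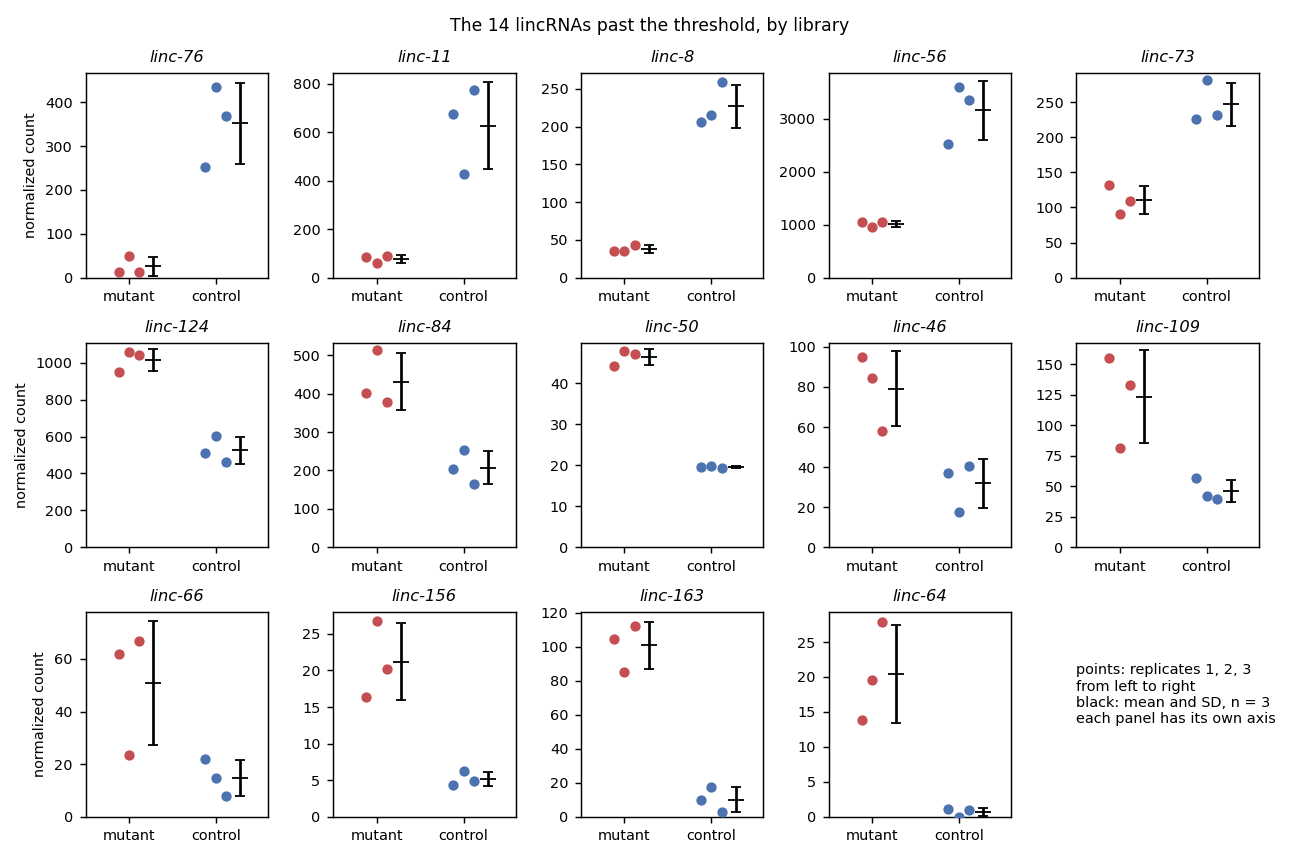
Normalized counts of the 14 lincRNAs past the threshold in each library, mutant left of control, with the mean and SD (n = 3) in black and a separate y axis from 0 in each panel. In all 14 panels the mutant points lie wholly below (linc-76, linc-11, linc-8, linc-56 and linc-73) or wholly above the control points.

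The 9 higher lincRNAs were linc-64, linc-163, linc-156, linc-66, linc-109, linc-46, linc-50, linc-84 and linc-124, in order of difference. On the X chromosome, linc-64 had 13.9, 19.5 and 27.9 normalized counts in mutant libraries, against 1.09, 0 and 0.971 in control libraries. No control library held more than 1 read, so the mean of the mutant libraries was at least 6.25-fold higher than a floor of 3 reads in a control library. Its fitted difference was 3.69 (SE 0.68, adjusted p 0.00663), and its mean of 10.6 passed the filter only through the mutant libraries. The targeted genes ceh-41, ceh-21 and ceh-39 lie on the same chromosome, 80.8 to 88.1 kb away. On chromosome V, linc-163 had 105, 85.3 and 112 normalized counts in mutant libraries, against 9.80, 17.7 and 2.91 in control libraries. It was 9.94-fold higher in mutant libraries, with a log2 difference of 3.45 (SE 0.53, adjusted p 0.00284). Without control replicate 2 it was 15.9-fold higher (log2 difference 3.96), and without control replicate 3 the log2 difference was 2.83. Its nearest neighbour, Y113G7B.11, was below all controls in each mutant library but did not pass (−0.66, SE 0.21, adjusted p 0.0541), and the neighbour on the other side, Y113G7B.15, rose (1.41, SE 0.38, adjusted p 0.0309).

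The most abundant lincRNA to rise was linc-124, on chromosome I. It had 948, 1059 and 1045 normalized counts in mutant libraries, against 511, 605 and 461 in control libraries, and was 1.94-fold higher (log2 difference 0.96, SE 0.17, adjusted p 0.00534). It stands within a group of insulin-like peptide genes, small secreted ligands of the insulin receptor pathway. Of the 7 such genes tested within 25 kb, 4 fell, against 10.5% of all tested features. The nearest, ins-27, lies 192 bases away on the opposite strand and had 179, 246 and 145 normalized counts in mutant libraries, against 298, 350 and 719 in control libraries (log2 difference −1.18, SE 0.33, adjusted p 0.0356). The differences of ins-24, ins-30 and ins-26 were −0.99, −1.25 and −3.22, with adjusted p of 0.0171, 0.00451 and 0.000809. Those of ins-25, ins-28 and ins-29 were −0.48, −0.18 and −0.79 and did not pass (adjusted p 0.501, 0.844 and 0.145). The protein-coding gene ZC334.12 spans 91.6% of the exonic bases of linc-124 on the same strand and differed by 0.70 (SE 0.22, adjusted p 0.0521, and 0.0379 with the replicate block). Reads of linc-124 and ZC334.12 therefore cannot be told apart with certainty.

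Also on chromosome I, linc-84 had 401, 515 and 377 normalized counts in mutant libraries, against 204, 252 and 166 in control libraries, a 2.08-fold rise (log2 difference 1.06, SE 0.22, adjusted p 0.0111). The opposite-strand gene F55H12.7, 396 bases away, rose as well, with 118, 135 and 93.7 normalized counts in mutant libraries, against 39.2, 50.1 and 55.3 in control libraries (1.24, SE 0.27, adjusted p 0.0139). On chromosome III, linc-109 had 155, 81.3 and 133 normalized counts in mutant libraries, against 56.6, 41.7 and 39.8 in control libraries (log2 difference 1.37, SE 0.31, adjusted p 0.0165). Mutant replicate 2 was the lowest of the mutant libraries here and still above each control. The nearest neighbour of linc-109, W09D10.1, 212 bases away, differed by −0.42 (SE 0.16, adjusted p 0.103) and did not pass. On the other side and the same strand, 1568 bases away, tat-3, a gene of the phospholipid-transporting ATPase family, rose by 0.92 (SE 0.19, adjusted p 0.00998). Of 15 features tested within 25 kb, tat-3 was the 1 that rose, against 7.56% of all tested features. There, 3 fell, against 10.5%, namely hpl-2, which encodes a heterochromatin protein 1 homologue (−1.73), rnf-113 (−1.58) and K01G5.10 (−2.17).

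The remaining 4 had adjusted p between 0.0282 and 0.0486. For linc-50, on chromosome IV, there were 44.2, 48 and 47.3 normalized counts in mutant libraries, against 19.6, 19.8 and 19.4 in control libraries (log2 difference 1.20, SE 0.32, adjusted p 0.0282). Its replicates were tighter than those of any other lincRNA called, and the forkhead gene fkh-7, 2422 bases away, was lower (−0.70, SE 0.21, adjusted p 0.0428). For linc-156, on chromosome I, there were 16.4, 26.8 and 20.3 normalized counts in mutant libraries, against 4.36, 6.26 and 4.85 in control libraries (1.83, SE 0.49, adjusted p 0.0297), and as its control mean was 5.16 it passed the filter only through the mutant libraries. For linc-46, on chromosome II, there were 94.8, 84.5 and 58.2, against 37.0, 17.7 and 40.8 (1.34, SE 0.38, adjusted p 0.0363). The opposite-strand gene math-44, 157 bases from linc-46, differed by 2.43 (SE 0.76, adjusted p 0.0519, and 0.0418 with the replicate block). With a control mean of 3.44, math-44 passed the filter only through the mutant libraries. For linc-66, also on chromosome II, there were 61.9, 23.6 and 66.7, against 21.8, 14.6 and 7.77 (1.69, SE 0.52, adjusted p 0.0486). The groups of linc-66 were separated by mutant replicate 2 at 23.6 and control replicate 1 at 21.8.

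The tested features around all 14 called lincRNAs were compared next. On the list of tested features ordered along each chromosome, 7 of the 14 had an adjacent feature called in the same direction, and 3 had one called in the opposite direction. Over all 3229 called features with a position, these shares were 37.8% and 9.26%. Of the 5 lower lincRNAs, 4 had an adjacent feature called lower, namely linc-76, linc-11, linc-8 and linc-56, and the share for all features called lower was 40.3%. Of the 9 higher lincRNAs, 3 had an adjacent feature called higher, namely linc-84, linc-109 and linc-163, and the share for all features called higher was 34.3%. With so few lincRNAs these shares describe the loci and carry no test. The counts within 25 kb on each side stand against 7.56% higher and 10.5% lower of all tested features, and they carry no test. Neighbours of the lower lincRNAs were 6 lower of 10 tested at linc-56, 2 lower of 5 at linc-11, 1 higher and 2 lower of 6 at linc-76, and 2 higher and 1 lower of 6 at linc-8. The 2 at linc-11 are bath-10 and bath-9, which passed the filter only through the control libraries. At linc-73 none of 10 passed by limma (2 at an unadjusted p under 0.05), while edgeR called 0, DESeq2 1 and limma with the replicate block 1. At the higher lincRNAs, 2 rose and 1 fell of 9 at linc-84 and likewise of 9 at linc-163. At linc-156, 1 rose and 1 fell of 9. None rose at linc-124, linc-50 and linc-66, where 4 of 13, 2 of 22 and 1 of 5 fell. Most of the 22 at linc-50 are small piRNA loci inside the gene fkh-7, on its strand. Their reads cannot be told apart from those of fkh-7, so these piRNA loci and fkh-7 are not separate neighbours. The 2 that fell at linc-50 were fkh-7 and, on the other side of linc-50, T12E12.44 (−1.12, SE 0.29, adjusted p 0.0273). At linc-46 and linc-64, none of 3 and 2 passed by limma (1 each at an unadjusted p under 0.05), while edgeR and DESeq2 called 1 at each.

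**Figure D3:**
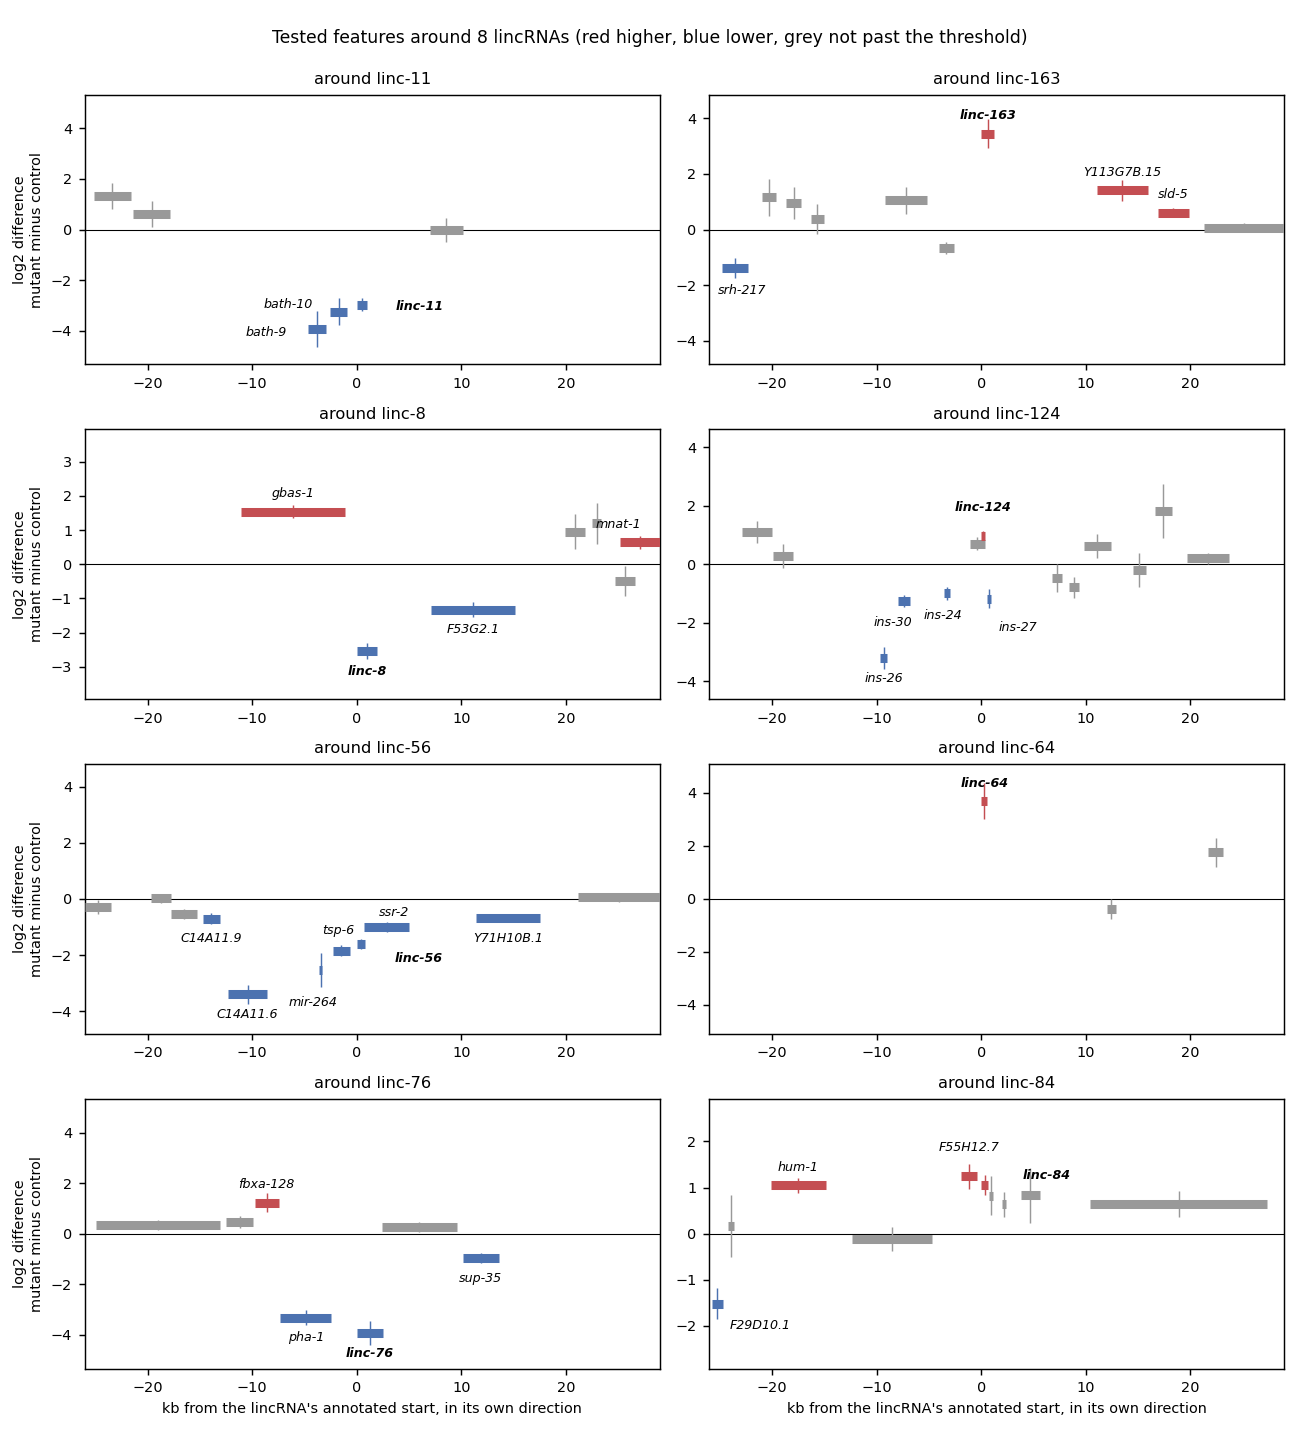
Log2 difference, mutant minus control (y axis), of every tested feature within 25 kb of the 4 lincRNAs with the smallest adjusted p in each direction, drawn over its annotated span in kb from the start of the lincRNA and in its direction (x axis), with bars for the SE. In the left column the lincRNAs are lower, with lower neighbours such as pha-1 (−3.32), bath-9 (−3.94) and tsp-6 (−1.84) and higher ones such as gbas-1 (1.54) and fbxa-128 (1.24). The filter was passed by bath-9 only through the control libraries. In the right column linc-124 is higher, and 4 of the 7 insulin-like peptide genes near it are lower past the threshold, against 10.5% of all tested features.

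Annotated structure was then set beside the calls. The 170 lincRNAs had a median exonic length of 456.5 bases, the 90 tested a median of 886 and the 80 not tested a median of 361. A single exon block was annotated for 54, of which 35 were tested and 5 called (14.3%), and 116 had 2 or more, of which 55 were tested and 9 called (16.4%), against 18.1% of all tested features. Although the class is named intergenic, 61 of the 170 overlapped an annotated gene other than a small RNA locus, and 10 overlapped small RNA loci only. Among tested lincRNAs with no overlap, 8 of 51 were higher and 1 was lower, and the median difference was 0.07. Among those that overlapped another gene, 1 of 34 was higher and 3 were lower, and the median difference was −0.34. Over all tested features 7.56% were higher and 10.5% lower. The difference between these subsets was not tested. Of the 14 called, 9 had no overlap, 1 overlapped piRNA loci only, and 4 overlapped another gene, by 1.06% (linc-56), 2.16% (linc-8), 9.39% (linc-76) and 91.6% (linc-124) of their exonic bases. By chromosome, the number called was 3 of 13 tested on I, 5 of 19 on II, 2 of 14 on III, 1 of 14 on IV, 1 of 11 on V and 2 of 19 on X.

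The lincRNAs not called were not thereby shown to be unchanged. Of these 76, 24 had a 95% confidence interval that stayed within 1 log2 unit of no difference, and 13 had a fitted difference of at least 1 log2 unit in either direction. The margin on either side of the difference ran from 0.33 to 2.54 log2 units, with a median of 0.88. The most variable tested lincRNAs within groups, singled out after their values were seen, were linc-150, linc-169, linc-145, linc-129, linc-167 and linc-35. For linc-169 there were 7.58, 65.8 and 7.60 normalized counts in mutant libraries, against 4.36, 13.6 and 6.80 in control libraries. For linc-150 there were 22.8, 0 and 18.6 in mutant libraries, against 12, 9.39 and 2.91 in control libraries. In all 6 of these lincRNAs, mutant replicate 2 was the highest mutant library or, for linc-150, the lowest. Across the 90 tested, mutant replicate 2 was the highest mutant library for 35 and the lowest for 38, and mutant replicates 1 and 3 were the highest for 25 and 30 and the lowest for 31 and 21.

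At the filter, the lincRNAs just above a mean of 10 were linc-145, linc-104 and linc-64, with means of 10.05, 10.4 and 10.6 normalized counts. Just below were linc-49, linc-79 and linc-108, with means of 9.77, 9.02 and 8.38. The mean of linc-49 came mostly from mutant replicate 2, at 52.8 normalized counts, against at most 3.13 in every other library. Of the 73 untested lincRNAs with a read, the groups of 6 did not overlap (8.22%), against 9.54% of all untested features with a read. These 6, named for that separation after their values were seen, were linc-17, linc-19, linc-38, linc-75, linc-117 and linc-148. In a fit of all features with a read, the smallest adjusted p of an untested lincRNA was 0.108, for linc-19, which had 8.85, 12.2 and 17.7 normalized counts in mutant libraries, against 3.27, 0 and 4.85 in control libraries.

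Other noncoding classes were compared in the same fit. Of 16 features that the annotation calls lincRNA but that have no linc- symbol, 10 were tested. By limma 1 was higher (10%, against 7.56% of all tested features) and none was lower (against 10.5%). At an unadjusted p under 0.05 there were 4 (40%, against 34.8%). The calls by edgeR were also 1 higher and none lower, while 2 were higher by DESeq2 and with the replicate block and 3 without mutant replicate 1. Of the antisense RNAs with anr- symbols, 27 of 56 were tested. By limma 3 were higher (11.1%, against 7.56% of all tested features) and none was lower (against 10.5%). At an unadjusted p under 0.05 there were 7 (25.9%, against 34.8%). The calls by edgeR were also 3 higher and none lower, and DESeq2 called 5 higher and none lower. With the replicate block 5 were higher, without mutant replicate 1 there were 6 higher and 1 lower, and without any other single library 1 or 2 were higher. Their median difference was 0.48, and 0.20 without mutant replicate 2. Of the 21ur- piRNA loci, 800 of 13405 were tested, with 30 higher (3.75%, against 7.56%), 93 lower (11.6%, against 10.5%) and a median difference of −0.47. Most of those tested near linc-50 lie inside the gene fkh-7, on its strand. Reads of such a host gene cannot be told apart from reads of the loci, and their part in the piRNA values was not tested. When single libraries were left out, counts over all features moved from 1353 higher and 1886 lower to 543 to 1603 and 870 to 2515. In these fits the median difference of the piRNA loci ran from −0.34 to −0.62, and their counts also moved. Without control replicates 1, 2 and 3 in turn, 13, 8 and 33 were lower and 13, 12 and 8 higher, and without mutant replicates 1, 2 and 3 in turn, 126, 81 and 30 were lower and 17, 23 and 9 higher. With equal totals 63 were lower and 34 higher, and the median difference was −0.30. With no filter, 5722 piRNA loci were fitted, with 73 lower, 36 higher and a median difference of −0.01. The size of their median thus changed with the filter and the scaling. The differences between these classes and the linc- RNAs were not tested. Among long noncoding RNAs with a studied role, tts-1, which is abundant in long-lived worms and associates with ribosomes, had 5683, 5532 and 3951 normalized counts in mutant libraries, against 6451, 13072 and 13070 in control libraries. It was lower (log2 difference −1.05, SE 0.28, adjusted p 0.0312). The call was lost under quantile normalization, with equal totals, without a variance trend, and without mutant replicate 3, control replicate 2 or control replicate 3, with adjusted p of 0.0532, 0.0561, 0.0848, 0.121, 0.119 and 0.112. The Dicer-binding RNA rncs-1 differed by 0.46 (SE 0.52, adjusted p 0.565), with overlapping groups, and lep-5, a noncoding RNA of developmental timing, was under the filter at means of 8.23 normalized counts in mutant libraries and 9.12 in control libraries.

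**Figure D4:**
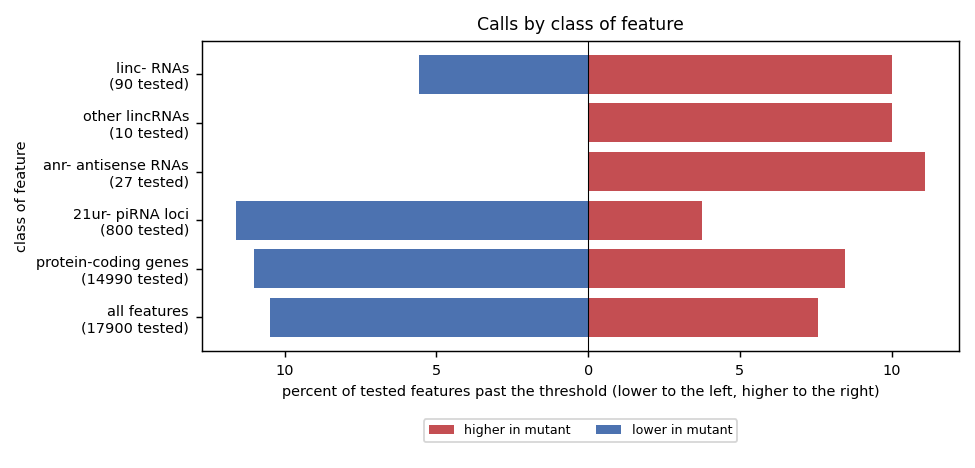
Percent of tested features that were lower (left of 0) or higher (right of 0) in mutant libraries past the threshold, by class of feature. The linc- RNAs had 5.56% lower and 10% higher, against 10.5% and 7.56% of all tested features.

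Genes of RNA processing and decay were taken from lists of the Integrator complex, which cleaves the ends of noncoding and stalled transcripts, and of the exosome, which degrades nuclear RNA. Of 11 Integrator genes, all tested, 4 were higher (36.4%, against a background of 7.56%). These were ints-3, ints-4, ints-7 and ints-11, the last of which encodes the cleaving subunit, with log2 differences of 0.67, 0.69, 0.87 and 0.96 and adjusted p of 0.0217, 0.0303, 0.0218 and 0.0136. The other 7 did not pass, and 10 of the 11 had positive differences under each scaling. The number higher was 7 with equal totals, 6 with the replicate block, with quantile normalization, by edgeR and by DESeq2, 1 without a variance trend, and 2 without control replicate 1 or control replicate 2. It was 0 by limma without mutant replicate 3 and without control replicate 3, where 6 and 5 were at an unadjusted p under 0.05. For the exosome, 10 of the 11 listed genes found in the table were tested and none passed by limma (3 at an unadjusted p under 0.05), while edgeR called 1 and DESeq2 called 2 higher. Limma called 2 of them higher with the replicate block, where exos-9 had an adjusted p of 0.0174 and mtr-4 of 0.0389, and 2 with quantile normalization, 3 with equal totals, 1 with median centring and 1 without mutant replicate 1. Their differences were 0.02 to 0.73 log2 units.

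The calls of the lincRNAs were followed through 17 other settings of the fit. All 14 kept their direction in each of them, which was largely fixed in advance. The groups of all 14 did not overlap, so leaving out a library could not reverse a difference. Changes of filter, block or variance trend leave the fitted difference as it was. In every setting in which they were tested, linc-11, linc-8, linc-56, linc-76, linc-73, linc-163, linc-124 and linc-84 remained past the threshold, as did linc-64, which passed the filter only through the mutant libraries. The calls of linc-46, linc-50, linc-66, linc-109 and linc-156 were lost when single libraries were left out. With all libraries kept, linc-50, linc-66 and linc-156 were lost with no filter (adjusted p 0.0688, 0.0684 and 0.0672), linc-46 and linc-66 without a variance trend (0.0580 and 0.0722) and linc-66 under quantile normalization (0.0508). Leaving out mutant replicate 3, control replicate 2 or control replicate 3 lost all 5 of them, so that 4 lincRNAs were higher and 5 lower. On reads recovered from the deposited values, edgeR called 9 higher and 5 lower, against 8.84% and 9.65% of all tested features, and these were the same 14. DESeq2 called 13 higher and 6 lower, against 11.2% and 12.4%, and the 14 were among its 19. With the replicate number as a block, 12 were higher and 9 lower, 23.3% of the 90, against 26.3% of all tested features (11.1% higher and 15.2% lower). The 14 all remained, with adjusted p from 0.000105 to 0.0336, and 7 were added. These 7, named for passing in that fit after their values were seen, were linc-31, linc-106 and linc-167, which were higher, and linc-2, linc-9, linc-90 and linc-142, which were lower.

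**Figure D5:**
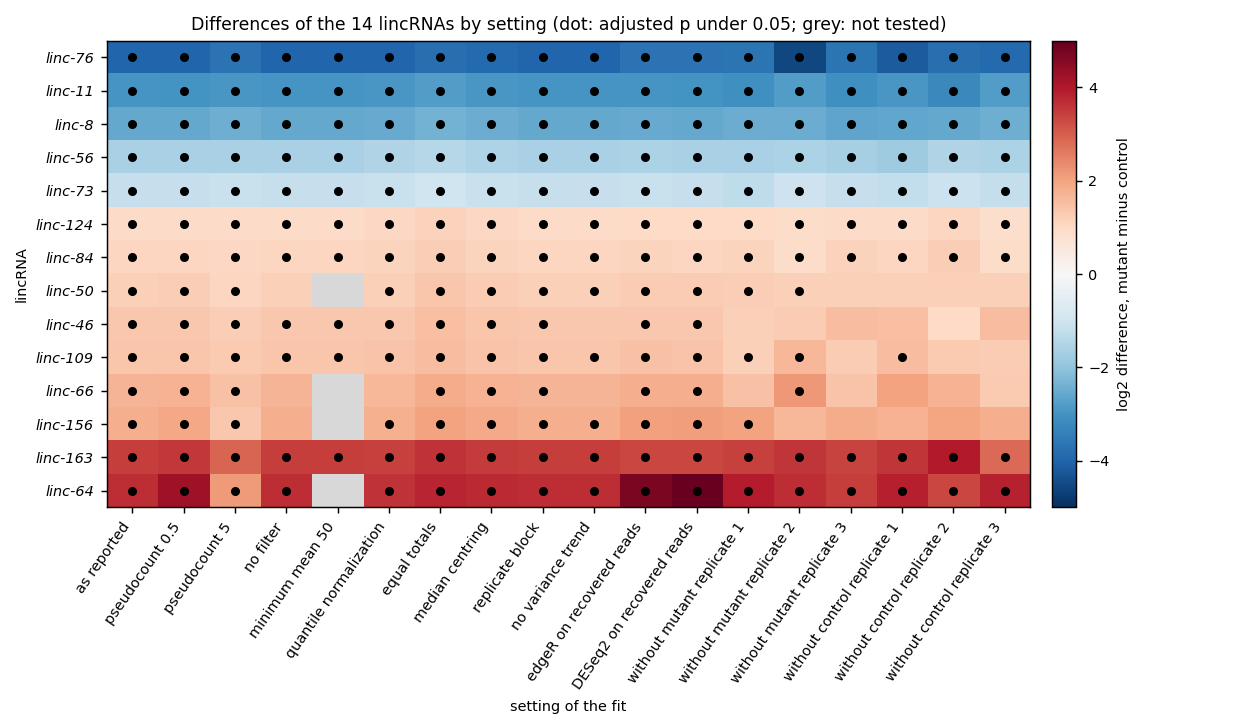
Log2 difference, mutant minus control (colour scale), of the 14 called lincRNAs (rows) in the fit as reported and 17 other settings (columns), with a dot where the adjusted p is under 0.05 and grey where the lincRNA was not tested. No row changes colour from blue to red, which was fixed in advance where single libraries are left out, as the groups of all 14 do not overlap. The rows from linc-50 to linc-156 lose dots when single libraries are left out.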

How the data were processed

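Nuclear RNA libraries, 3 per group, were analysed from one table of 41862 features. Per the submitters' processing notes the authors used STAR, featureCounts and DESeq2. Versions, genome build, strand setting and treatment of shared reads are not given in the sources used here, and without a strand setting reads of overlapping or antisense genes cannot be told apart. The deposited signal values are normalized gene counts: in each library all values are multiples of one step, as left when the authors scale reads by a single factor. Dividing by that step gave whole reads for 100% of values (tolerance 0.01 reads), 15500882 to 20844986 per library, and these recovered counts went only into edgeR 4.0.16 and DESeq2 1.42.0.

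Features with a mean of at least 10 (17900) were tested on log2(normalized count + 1) with limma 3.58.1 (R 4.3.3) on group alone with a variance trend, two-sided, with Benjamini-Hochberg adjustment over all of them and a threshold of 0.05. Fold changes on that scale understate the change of low features. Differences are mutant minus control. The members and lists were chosen with earlier results of these data known. The members named are all those past the threshold, the 5 with the highest level and the 3 on each side of the filter, and those outside this rule are stated as chosen for position, for neighbourhood or after their values were seen. Names, positions and overlaps came from Ensembl release 115 and RefSeq for WBcel235, which matched 41763 features. Since the build of the files is not given, no coordinates are printed and distances are those of WBcel235. No sequence was analysed here, so promoters were not searched.

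Replicate numbers come from the sample titles. Deviations from the group means of same-numbered libraries correlated at 0.25, 0.20 and 0.15 over 17900 features, so the libraries may be paired by number. The labels do not state such a pairing. The calls as reported are from the fit on group alone, and a fit with the number as a block was added as an alternative.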

Additional observations from a re-analysis of the deposited data

How the results depend on the processing

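The median difference of the tested lincRNAs was −0.06 and stayed within −0.11 and 0.00 when single libraries were left out. None of the 14 called lincRNAs changed direction in any alternative. For fits that leave out a library this was fixed in advance, as the groups of all 14 do not overlap. An adjusted p under 0.01 left 3 higher lincRNAs and a minimum mean of 50 left 5 of 44 tested. Leaving out single libraries gave 4 to 12 higher and 5 to 7 lower lincRNAs. The replicate block gave 9 lower lincRNAs, and it ended none of the 14 lincRNA calls. Over all features, 1353 were higher and 1886 lower. Leaving out single libraries gave 543 to 1603 and 870 to 2515, and equal totals gave 2118 higher. Equal totals moved the median of all features from −0.02 to 0.15 and that of the lincRNAs to 0.12, and the share of lower among all calls from 58.2% to 39.1%. edgeR called 3309 features and DESeq2 4225. Among the lincRNAs, the highest adjusted p was 0.0670 for linc-109, 0.0868 for linc-50, 0.0920 for linc-156, 0.110 for linc-46 and 0.158 for linc-66. The cause of these shifts was not tested. Depth limits lincRNAs with means near 10, where a floor of 3 reads is 2.44 to 3.79 normalized counts.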
